A study of Mus musculus with 6 samples.

Results

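The proton-coupled peptide transporters of the SLC15 family were followed through mouse bone marrow libraries from Hes1 KO and WT animals. Hes1 is a DNA-binding repressor that Notch signalling switches on. The members were the 3 genes Slc15a2, Slc15a3 and Slc15a4, taken by symbol from a table that also holds 26985 other genes. They had been chosen for their difference between the groups in these same libraries, so their values are described here and carry no test. The study comprised 3 Hes1 KO and 3 WT libraries whose labelled cell type is the mesenchymal stromal cell (MSC) of bone marrow. The Hes1 KO animals came from floxed Hes1 mice crossed with the Prx1Cre line, whose Cre is driven by the Prx1 promoter in early limb bud mesenchyme and part of the craniofacial mesenchyme. The WT animals are labelled only as wild type, and the protocols, written alike for every sample, name Hes1fl/+ heterozygotes on C57BL/6. The number of deleted alleles, whether WT mice carried Cre or the floxed allele, the age of the mice and any pooling of animals are not stated in the labels. The labels do not say whether libraries came from separate animals or cultures, so a p-value here covers only variation among these libraries, whatever its source.

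SLC15 proteins carry short peptides across membranes together with protons, drawing on the proton gradient. Slc15a1 (PEPT1) and Slc15a2 (PEPT2) act at the cell surface and are best known from gut, kidney and brain barriers, where PEPT2 is the high-affinity carrier. Slc15a3 (PHT2) and Slc15a4 (PHT1) sit on endosomes and lysosomes of immune cells, carry histidine and small peptides, and let fragments of bacterial cell wall reach NOD receptors in the cytosol. Slc15a4 also holds the adaptor TASL, through which endosomal Toll-like receptors activate IRF5.

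The libraries differed in depth and make-up. The Hes1 KO libraries held 20563116 to 22131465 counts, WT replicate 2 held 5812598 and WT replicate 3 held 12109170. WT replicate 1 held 66167, so its counts are shown apart and fold changes are given mainly from the other 5 libraries. Hes1 itself was at 8.36, 10.4 and 12.4 CPM (counts scaled to a library total of 1000000) in Hes1 KO against 53.3 and 28.5 CPM in WT replicates 2 and 3 and 0 counts in WT replicate 1. It fell by 2.55 on the log2 scale in the fit without WT replicate 1 (SE 0.31, edgeR quasi-likelihood test with Benjamini-Hochberg adjustment, adjusted p = 0.0294), and did not pass with all 6 libraries. Stromal markers were scarce: all 10 together made up at most 0.00363% of any library. The most abundant, Cxcl12 and Pdgfrb, were at 3.12 to 14.0 and at 6.71 to 7.91 CPM in Hes1 KO, and at 0.743 to 12.6 and at 1.73 to 10.5 CPM in the deeper WT libraries. Prrx1, the gene whose promoter drives the Cre, had 2, 0 and 1 counts in Hes1 KO against 0, 1 and 0 in WT. Erythroid markers took 42.5% of WT replicate 3 and at most 0.317% of any other library. The nuclear RNA Malat1 was at 13895 CPM in WT replicate 2 and at most 3340 CPM in the others.

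Sequences upstream of the transcription start are shown for the 2 members found in the RefSeq promoter table (GRCm38.p6), because the deleted factor is a DNA-binding repressor. Each run is the 250 bases before the start, 5′ to 3′ on the gene's strand, and capitals mark matches to the N-box (CACNAG) or the class C site (CACGNG), letters known to be bound by Hes proteins, on either strand. The first is from chr16:36784963-36785212 (minus strand) and the second from chr5:127617393-127617642 (minus strand).
Slc15a2: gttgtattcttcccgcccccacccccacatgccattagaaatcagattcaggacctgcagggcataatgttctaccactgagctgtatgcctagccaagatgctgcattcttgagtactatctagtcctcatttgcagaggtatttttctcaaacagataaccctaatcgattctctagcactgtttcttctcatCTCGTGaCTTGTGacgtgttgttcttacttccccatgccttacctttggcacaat
Slc15a4: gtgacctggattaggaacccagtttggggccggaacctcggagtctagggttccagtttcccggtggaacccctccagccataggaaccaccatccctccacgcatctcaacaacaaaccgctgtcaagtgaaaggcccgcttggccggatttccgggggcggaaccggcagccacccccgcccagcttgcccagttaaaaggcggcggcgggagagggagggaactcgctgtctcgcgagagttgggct

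The Slc15a2 window held 2 N-box matches on the opposite strand, whose first bases lay 55 and 48 bases before the start, and the one at 55 is also a class C match. The Slc15a4 window held no match to either motif. Among 32851 promoter windows of the same length, 36.7% held an N-box match and 23.5% a class C match, so such matches are common by letters alone. Neither window held the E-box CACGTG, the RBPJ site GTGGGAA, the CLEAR core TCACGTGA of lysosomal genes or the PU.1 core GAGGAAGT, on either strand. These were present in 6.02%, 5.42%, 0.785% and 2.44% of windows. Every E-box is also a class C match, and every CLEAR core contains an E-box. The windows also differed in base composition: GC content was 45.2% with 4 CpG in Slc15a2 and 62.8% with 17 CpG in Slc15a4, against medians of 52.4% and 6 over all windows.

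Slc15a2, the cell-surface carrier, was counted 1, 1 and 7 times in Hes1 KO replicates 1, 2 and 3. WT replicate 2 held 156 counts and WT replicate 3 held 512. In CPM these are 0.0452, 0.0472 and 0.340 in Hes1 KO (mean 0.144 ± 0.170 SD, n = 3) and 26.8 and 42.3 in the WT libraries (mean 34.6 ± 10.9 SD, n = 2). All 3 Hes1 KO libraries thus lay below both of these WT libraries, with the highest Hes1 KO value from replicate 3. WT replicate 1 had 0 counts of Slc15a2, which at its depth allows up to 45.3 CPM (3 counts), so it does not tell the groups apart.

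Over both deep WT libraries 668 counts of Slc15a2 were found among 17921768, and over the Hes1 KO libraries 9 among 63864628. The ratio of these rates was 264 (exact 95% interval 138 to 581, counting error only). The mean of the CPM values gave a ratio of 239.5. In the fit of 5 libraries the log2 fold change was -8.83 (SE 1.22), and 6 of 16190 genes tested, Slc15a2 among them, had a value as low. It rests on 9 counts in Hes1 KO. Slc15a2 did not pass the filter on low counts when all 6 libraries were used, and the 2 other members passed in both fits.

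Inside WT, Slc15a2 was 1.58-fold higher in replicate 3 than in replicate 2 by CPM. The trimmed mean (TMM) scaling behind the fold changes multiplies library size by 1.37 for WT replicate 2 and by 0.445 for WT replicate 3. On that scale Slc15a2 stood at 19.7 and 95.1 CPM in WT replicates 2 and 3, a 4.84-fold difference, and at 0.0358 to 0.275 CPM in Hes1 KO. With erythroid marker counts taken out of the totals WT replicate 3 stood at 73.6 CPM and the mean of both WT libraries at 50.2 CPM. Without WT replicate 3 the log2 fold change was -7.27 and without WT replicate 2 it was -9.56. The lowest value, -10.26, came without Hes1 KO replicate 3, the library with 7 counts.

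Markers of other cells moved with Slc15a2 in part. The 10 B cell markers summed to 0.0897%, 0.0914% and 0.157% in Hes1 KO against 0.499% and 0.258% in WT replicates 2 and 3, so these groups did not overlap, while WT replicate 1 stood at 0.0257%, with Ebf1 and Pax5, transcription factors of the B lineage, the most abundant. Of these markers, 2 of 10 fell in Hes1 KO in the 5-library fit (edgeR with Benjamini-Hochberg adjustment, threshold 0.05), where 8.09% of all genes tested fell. The 8 erythroid markers, led by the globins Hbb-bs and Hbb-bt, summed to 0.0120%, 0.00385% and 0.317% in Hes1 KO, 0.0123% in WT replicate 2 and 42.5% in WT replicate 3. The library of WT replicate 2, with 156 counts of Slc15a2, thus had an erythroid share within the Hes1 KO range. Per 100 counts of B cell markers, Slc15a2 had 0.00504 to 0.0217 counts in Hes1 KO against 0.538 and 1.64 in these WT libraries, so the groups did not overlap on that scale. Per 100 counts of erythroid markers they did overlap: Slc15a2 had 0.0376, 0.123 and 0.0107 counts in Hes1 KO, 21.9 in WT replicate 2 and 0.00994 in WT replicate 3, the lowest of the 5. In bulk RNA, fewer cells of a type and less RNA per cell cannot be told apart.

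**Figure D1:**
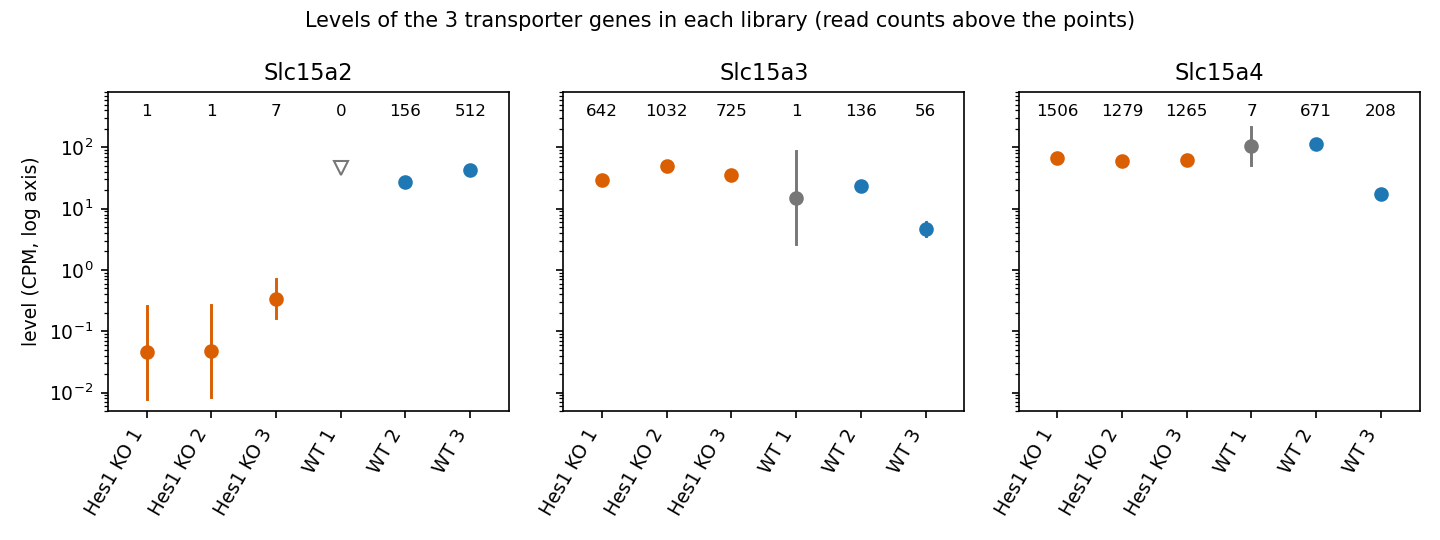
Level of Slc15a2, Slc15a3 and Slc15a4 in each library in CPM on a log axis, with the read count printed above. Points are single libraries (orange Hes1 KO, blue WT, grey the shallow WT replicate 1), bars are Wilson 95% intervals, and the open triangle is the level that 3 counts would give in the library with 0 counts. Slc15a2 is at 0.0452 to 0.340 CPM in Hes1 KO against 26.8 and 42.3 CPM in WT replicates 2 and 3, while Slc15a4 in Hes1 KO lies between the WT libraries.

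Slc15a3, the lysosomal histidine and peptide carrier PHT2, was counted 642, 1032 and 725 times in Hes1 KO against 136 and 56 times in WT replicates 2 and 3. WT replicate 1 held 1 count. In CPM the Hes1 KO values were 29.0, 48.7 and 35.3 (mean 37.7 ± 10.1 SD, n = 3) and the WT values were 23.4 and 4.62 (mean 14.0 ± 13.3 SD, n = 2). The single count of WT replicate 1 equals 15.1 CPM, with a Wilson 95% interval of 2.67 to 85.6. Each Hes1 KO library lay above every WT library by these values, but the interval of WT replicate 1 covers all the Hes1 KO values. In the 5-library comparison the Hes1 KO libraries lay above both WT libraries for 35.1% of all genes tested, and with all 6 libraries for 24.7%. They lay below for 7.54% of genes with 5 libraries, Slc15a2 among them, and for 1.02% with 6. The members were chosen on this contrast, so nothing is read from these counts.

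The log2 fold change of Slc15a3 was 1.24 (SE 0.40) with 5 libraries and 1.31 (SE 0.48) with 6. As many as 12.6% of genes tested in the 5-library fit had a value at least as high. Leaving out single libraries moved it between 0.79, without Hes1 KO replicate 2, and 1.65, without WT replicate 2. Slc15a3 overlaps Tmem132a on the opposite strand at its 3′ end in GENCODE vM21, and the strand setting of the counting is not given. Tmem132a had 107 to 117 counts in Hes1 KO against 43 and 15 in WT replicates 2 and 3, fewer than Slc15a3 in each.

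Myeloid markers were higher in the same libraries as Slc15a3. The 11 measured macrophage markers, led by Mpeg1 and Csf1r, summed to 0.167% to 0.210% in Hes1 KO against 0.0448% and 0.0122% in WT replicates 2 and 3. The 6 monocyte markers, led by F13a1 and Ly6c2, summed to 0.375% to 0.470% against 0.106% and 0.00936%. The 12 neutrophil markers, led by S100a9 and S100a8, summed to 4.49% to 13.3% against 1.35% and 0.0341%. In the 5-library fit 4 of 8 tested macrophage markers, 3 of 6 monocyte markers and 1 of 12 neutrophil markers rose. Over all genes tested in that fit 7.44% rose. Per 100 counts of macrophage markers, Slc15a3 had 1.38, 2.92 and 2.02 counts in Hes1 KO against 5.22 and 3.80 in WT replicates 2 and 3. Per 100 counts of monocyte markers it had 0.617, 1.24 and 0.940 in Hes1 KO against 2.20 and 4.94 in these WT libraries. Set against these markers, Slc15a3 was therefore lower in every Hes1 KO library than in either WT library, the opposite order to its CPM. Slc15a4 had the same order on both scales, at 3.24 to 3.62 against 25.8 and 14.1 per 100 macrophage marker counts. The marker sums were themselves higher in Hes1 KO, and the share of all genes with this order was not computed, so nothing is read from it. WT replicate 1 had macrophage and monocyte sums of 0.408% and 1.20%, above all the other libraries, with its 1 count of Slc15a3. The part of myeloid transcripts in the Slc15a3 difference was not tested.

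Slc15a4, the endolysosomal carrier PHT1, was the most abundant member in 4 of the 5 deep libraries. It was counted 1506, 1279 and 1265 times in Hes1 KO against 671 and 208 times in WT replicates 2 and 3. These are 68.0, 60.4 and 61.5 CPM in Hes1 KO (mean 63.3 ± 4.13 SD, n = 3) and 115 and 17.2 CPM in WT (mean 66.3 ± 69.5 SD, n = 2). WT replicate 1 held 7 counts, or 106 CPM (Wilson 95% interval 51.2 to 218). The Hes1 KO libraries lay close together and between the WT libraries, which differed 6.72-fold by CPM and 2.19-fold after TMM scaling. The groups overlapped on either scale.

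The log2 fold change of Slc15a4 was -0.20 (SE 0.34) with 5 libraries and -0.25 (SE 0.39) with 6. Its sign rested on WT replicate 2: without that library it was 0.48 with 5 libraries and 0.02 with 6, and without WT replicate 3 it was -0.62 and -0.51. Per 100 counts of macrophage markers, Slc15a4 had 3.24, 3.62 and 3.53 counts in Hes1 KO against 25.8 and 14.1 in WT replicates 2 and 3. Glt1d1, which overlaps the 5′ end of the annotated Slc15a4 gene on the other strand, had 73 to 197 counts in Hes1 KO against 25 and 0 in these WT libraries. That end, from GENCODE vM21, lies upstream of the RefSeq start, so the promoter shown falls inside the GENCODE gene.

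**Figure D2:**
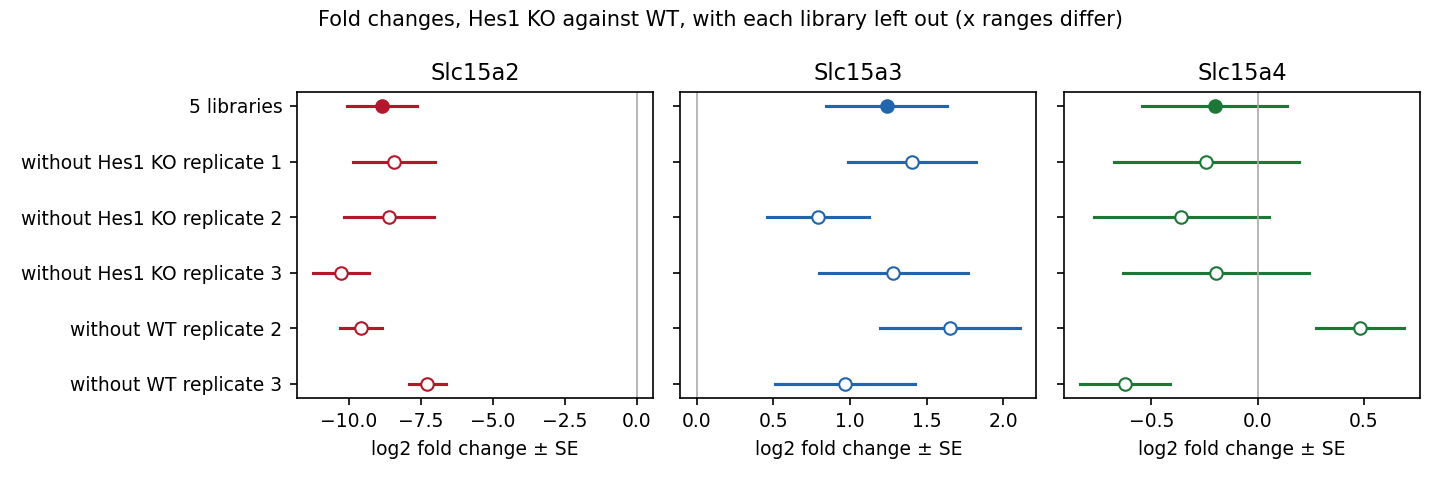
Log2 fold change of each member, Hes1 KO against WT, in the 5-library fit (filled) and with each library left out in turn (open), with bars of 1 SE and x ranges that differ between panels. Slc15a2 stays between -10.26 and -7.27, Slc15a3 between 0.79 and 1.65, and Slc15a4 changes sign without WT replicate 2.

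Levels of different genes were compared per kb of coding length. In the Hes1 KO libraries Slc15a4 was highest at 35.1 to 39.5 CPM per kb, followed by Slc15a3 at 16.7 to 28.1 and Slc15a2 at 0.0204 to 0.153, and the ranges of neighbours did not overlap. In WT replicate 2 Slc15a4 was at 67.0 CPM per kb, and Slc15a3 at 13.5 and Slc15a2 at 12.1 did not differ beyond their Wilson intervals (11.4 to 16.0 and 10.3 to 14.1). In WT replicate 3 the order was Slc15a2 at 19.05, Slc15a4 at 9.98 and Slc15a3 at 2.67 CPM per kb. The WT group therefore had no single order.

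Shares within a library do not depend on scaling between libraries. Of the 3 members' summed counts per kb, Slc15a2 made up 0.0362%, 0.0337% and 0.273% in Hes1 KO, 13.1% in WT replicate 2 and 60.1% in WT replicate 3. Slc15a3 made up 29.7%, 44.5% and 36.2% in Hes1 KO against 14.6% and 8.42% in these WT libraries, and Slc15a4 the rest. Per 100 counts of Slc15a4 there were 42.6, 80.7 and 57.3 counts of Slc15a3 in Hes1 KO against 20.3 and 26.9 in WT. Slc15a4 thus had more counts than Slc15a3 in each of these libraries, and the ratio was higher in each Hes1 KO library than in either WT library. Both members were chosen on this contrast, so nothing is read from this separation.

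**Figure D3:**
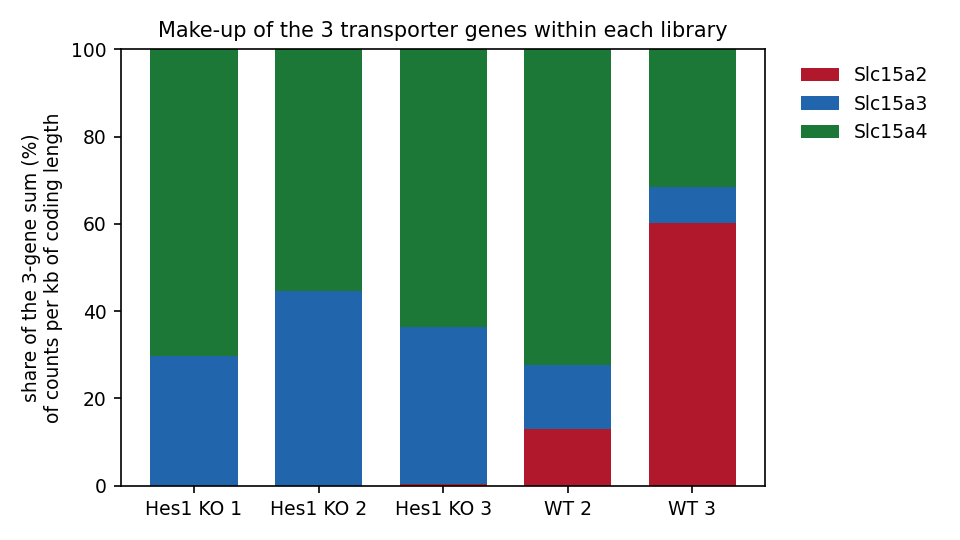
Share of each member in the 3-gene sum of counts per kb of coding length, in percent, for the 5 deep libraries. Slc15a2 is too small to see in Hes1 KO replicates 1 and 2 and makes up 60.1% of the sum in WT replicate 3.

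Among 16801 coding genes ranked by CPM per kb, Slc15a4 had 24.2% to 26.5% of genes above it in Hes1 KO against 13.7% and 29.6% in WT replicates 2 and 3. Slc15a2 had 80.3% to 89.0% of genes above it in Hes1 KO, 46.6% in WT replicate 2 and 17.6% in WT replicate 3. Its rank thus differed more between libraries than that of either other member. Slc15a3 held ranks nearer the middle, with 28.6% to 42.2% above it in Hes1 KO against 44.7% and 52.3% in WT.

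The genes with the most similar profile were sought by the root mean square difference between mean-centred log2(CPM + 0.5) values over the 5 deep libraries, among 13605 named genes. For Slc15a2 they were Dusp8 (difference 0.88), Rec114 (0.96), Ctse (1.22), Reln (1.36) and Abcb4 (1.49), against a median of 3.24 over all genes compared. Dusp8, a MAP kinase phosphatase, had 4, 3 and 25 counts in Hes1 KO against 62 and 245 in WT. Ctse, the aspartic protease cathepsin E, had 421, 673 and 1302 counts in Hes1 KO against 1175 and 9381 in WT. The log2 fold change of Dusp8 was -5.96, smaller in size than that of Slc15a2. For Slc15a3 the 5 genes were Atg7, Pacs1, Flt1, Actb and Nbeal2, at differences of 0.07 to 0.10 against a median of 0.80. Flt1 had only 12 and 1 counts in WT replicates 2 and 3 (2.06 and 0.083 CPM), where the added 0.5 CPM narrows differences. For Slc15a4 they were Zfp472, Igf1r, Notch1, Wsb1 and Fzd7, at 0.03 to 0.06 against a median of 0.64. All these genes were picked for likeness in the same libraries, so nothing is read from shared directions or small differences.

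**Figure D4:**
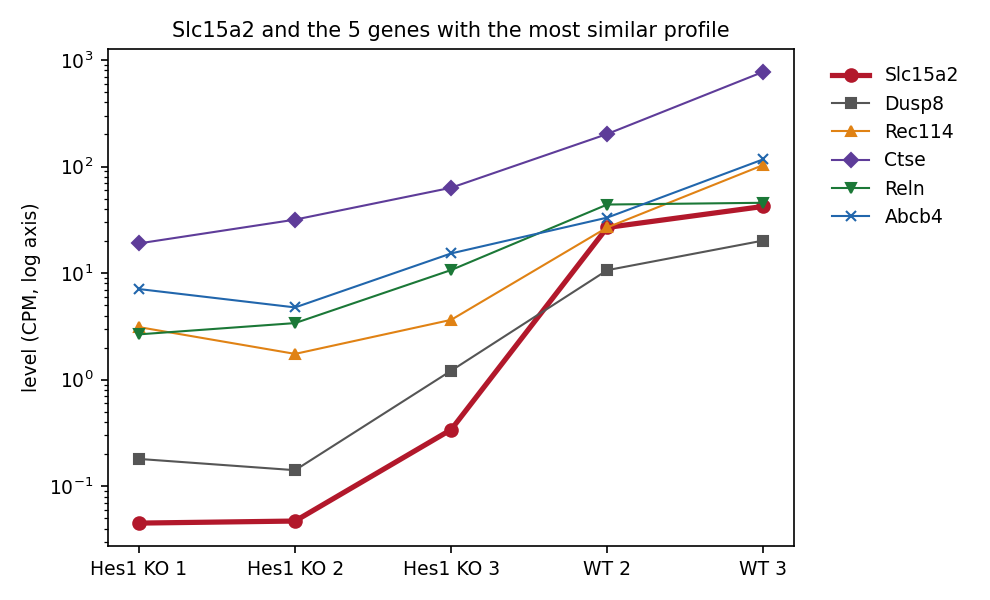
Levels in CPM (log axis) of Slc15a2 and of the 5 genes with the most similar profile in the 5 deep libraries. Lines join the values of 1 gene and imply no order of libraries. All 6 genes are higher in WT replicates 2 and 3 than in Hes1 KO, and Slc15a2 has the lowest Hes1 KO values. The 5 genes were picked for likeness to Slc15a2 in these same libraries, so nothing is read from their shared direction.

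The surroundings of the members were described after their values were known. Over all genes of the 5-library fit 15.5% passed, 7.44% higher and 8.09% lower, and the small windows are given as counts from which nothing is read. Slc15a2 lies on chromosome 16, 6.68 Mb from Hes1 (GRCm38). Of 9 tested genes within 250 kb of Slc15a2, 2 fell and 7 did not pass: Ildr1, with 8 to 19 counts in these libraries, fell by 2.42 (log2, adjusted p = 0.0406) and Iqcb1 by 2.14 (adjusted p = 0.0302, both edgeR with Benjamini-Hochberg adjustment). Eaf2, the nearest at 7.92 kb, had a log2 fold change of -1.02 (SE 0.40), and Hcls1 one of 1.11 (SE 0.39). Of 149 tested genes within 10 Mb of Hes1, leaving out Hes1 and Slc15a2, 9 rose and 16 fell, with a median of 0.06. That is 16.8% called and 10.7% lower, near the shares over all genes. Whether sequence that travels with the floxed allele differs between the groups at this distance was not tested. Around Slc15a3 on chromosome 19, 2 of 14 genes rose: Tmem109 by 2.08 and Ms4a8a by 5.28 (each with an edgeR adjusted p = 0.0294 after Benjamini-Hochberg adjustment). The Ms4a8a value rests on 2 and 1 counts in WT replicates 2 and 3, against 160, 291 and 204 in Hes1 KO. WT replicate 1, where 1 count is 15.1 CPM, had 2 counts of Ms4a8a.

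Genes of pathways around the transporters were then compared between Hes1 KO and WT in 7 lists with 103 measured genes. With all 6 libraries 0 of 96 list genes passed (edgeR with Benjamini-Hochberg adjustment), and 0 of 14756 genes in all (0%). Over all genes 2200 had an unadjusted p under 0.05, DESeq2 called 813 and limma-voom 0. With 5 libraries 16 of 97 list genes rose and 9 fell, and their median log2 fold change was 0.49. Over all 16190 genes tested there, 7.44% rose, 8.09% fell and 15.5% passed in either direction, with a median of 0.02. Without any one of Hes1 KO replicates 1, 2 or 3 no list gene passed, and no gene at all. Without WT replicate 2, 29 list genes rose and 14 fell, and without WT replicate 3, 39 rose and 12 fell. In these last fits WT is a single library, assumed to vary like the Hes1 KO libraries, so the higher counts are no sign of stability. The macrophage, monocyte and neutrophil marker sums given above were higher in each Hes1 KO library than in the WT libraries of this fit, and their part in the list genes was not tested. All adjusted p-values of list genes below are from edgeR with Benjamini-Hochberg adjustment over all genes in the 5-library fit.

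Slc15a1, the gut transporter, had 0, 1 and 1 counts in Hes1 KO against 0, 0 and 2 in WT. Slc15a5 was looked for by symbol and was not among the genes counted. Of the relatives and carriers of NOD ligands, 3 of 7 measured genes were tested and none passed. Slc46a3, a lysosomal carrier, had a log2 fold change of 0.90 (SE 0.25, edgeR adjusted p = 0.0604).

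Of 12 genes of the NOD receptor pathway, the cytosolic sensors of the peptidoglycan fragments that SLC15 carriers move, 1 rose and 2 fell, with a median of 0.01. Nod1, the sensor of diaminopimelic acid peptides, had 636, 967 and 615 counts in Hes1 KO against 79 and 38 in WT replicates 2 and 3. It rose by 1.82 (log2, SE 0.38, edgeR adjusted p = 0.0394). Its CPM were 28.7 to 45.7 in Hes1 KO against 13.6 and 3.14 in these WT libraries, without overlap, as for 35.1% of all genes tested. Tnfaip3, the ubiquitin-editing inhibitor A20, fell by 1.97 (SE 0.30, edgeR adjusted p = 0.0300), and Birc2, a ubiquitin ligase of NOD complexes, by 0.72 (SE 0.18, edgeR adjusted p = 0.0497). Both overlapped between the groups in CPM: Tnfaip3 was at 75.8 to 106 in Hes1 KO against 520 and 94.3 in WT, and Birc2 at 53.2 to 68.6 against 114 and 40.1.

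Of 16 genes of the endosomal Toll-like receptor route to IRF5, 4 rose and 1 fell, with a median of 0.71. Tlr7, the endosomal receptor for single-stranded RNA, had 654, 745 and 593 counts in Hes1 KO against 79 and 57 in WT replicates 2 and 3, and rose by 1.38 (log2, SE 0.26, edgeR adjusted p = 0.0338). Cnpy3, a chaperone of Toll-like receptors, rose by 1.12 (SE 0.18, edgeR adjusted p = 0.0303). Irak4, the kinase next to the adaptor Myd88, rose by 1.17 (SE 0.22, edgeR adjusted p = 0.0333). Its value was -0.55 with all 6 libraries, where 21 counts in WT replicate 1 make 317 CPM against 56.3 to 58.6 CPM in Hes1 KO. Traf6, the ubiquitin ligase after Irak kinases, fell by 1.11 (SE 0.19, edgeR adjusted p = 0.0305). Its CPM overlapped, at 53.1 to 70.7 in Hes1 KO against 170 and 47.9 in WT replicates 2 and 3.

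The direct partners of Slc15a4 were named for that link, with their values known. Tasl, the adaptor it holds, had 451, 367 and 369 counts in Hes1 KO against 170 and 49 in WT replicates 2 and 3. Its log2 fold change was 0.04 (SE 0.38), and in CPM the Hes1 KO libraries lay between the WT libraries, as they did for Slc15a4. Irf5 had a log2 fold change of 0.88 (SE 0.25) and did not pass (edgeR adjusted p = 0.0650). Tlr7 and Tasl lie on the X chromosome, and Xist, made by the inactive X, was at 1221, 11.0 and 1004 CPM in Hes1 KO against 3.10 and 71.9 CPM in WT replicates 2 and 3. Xist was thus high in Hes1 KO replicates 1 and 3 and low in the other 3 of these libraries. It was highest of all, at 2055 CPM, in WT replicate 1, so high values occurred in both groups. The part of this in the X-linked genes was not tested.

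Of 12 measured genes listed as lysosomal amino acid and dipeptide transporters, 2 rose and 1 fell, with a median of 0.52. The list also holds lysosomal genes outside that class, such as Slc29a3. Mfsd1, which exports dipeptides from lysosomes, had 3759, 2811 and 2894 counts in Hes1 KO against 438 and 289 in WT replicates 2 and 3, and rose by 1.19 (log2, SE 0.20, edgeR adjusted p = 0.0304). Slc29a3, a lysosomal nucleoside carrier, rose by 1.10 (SE 0.26, edgeR adjusted p = 0.0457), but was at -0.76 with all 6 libraries, where WT replicate 1 had 42 counts. Slc38a9, the lysosomal arginine sensor of mTORC1, had 1117, 1076 and 1199 counts in Hes1 KO against 688 and 916 in WT. It fell by 1.51 (SE 0.31, edgeR adjusted p = 0.0379), and its CPM, 50.5 to 58.3 against 118 and 75.6, did not overlap. The Hes1 KO libraries lay below both of these WT libraries for 7.54% of all genes tested.

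The vacuolar proton pump makes the gradient on which the lysosomal carriers draw. Of 17 tested subunits and accessory genes 2 rose, 0 fell and 15 did not pass, with a median of 0.57. Atp6v1b2, a B subunit of the cytosolic part of the pump, rose by 1.69 (log2, SE 0.28, edgeR adjusted p = 0.0304), from 124 and 38.9 CPM in WT replicates 2 and 3 to 312 to 384 CPM. Atp6v1a, the catalytic subunit, rose by 1.26 (SE 0.21, edgeR adjusted p = 0.0305).

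Of 18 genes of the Ragulator, Rag and mTORC1 machinery on the lysosome 4 rose and 3 fell, with a median of 0.30. Lamtor4, a Ragulator subunit, had 2444, 4407 and 2421 counts in Hes1 KO against 140 and 132 in WT replicates 2 and 3, and rose by 2.59 (log2, SE 0.46, edgeR adjusted p = 0.0312). Rheb, the activator of mTORC1, rose by 1.00 (SE 0.18, edgeR adjusted p = 0.0323), but was at -0.09 with all 6 libraries, where WT replicate 1 had 17 counts. Rragd, a Rag GTPase, fell by 2.20 (SE 0.30, edgeR adjusted p = 0.0294), from 23.4 and 8.84 CPM in WT replicates 2 and 3 to 3.35 to 6.37 CPM. Rptor, the scaffold of mTORC1, fell by 1.01 (SE 0.21, edgeR adjusted p = 0.0368), with 35.5 CPM in WT replicate 3 inside the Hes1 KO range of 33.2 to 50.9 CPM.

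Of 19 tested peptidases and histidine enzymes, which make or use the cargo of SLC15 carriers, 3 rose and 2 fell, with a median of 0.65. Cndp2, a cytosolic dipeptidase, had 2285, 2226 and 1967 counts in Hes1 KO against 201 and 174 in WT replicates 2 and 3, and rose by 1.58 (log2, SE 0.23, edgeR adjusted p = 0.0300). Hdc, which turns histidine into histamine and is high in basophils and mast cells, rose by 2.16 (SE 0.41, edgeR adjusted p = 0.0338). The 5 basophil and mast cell markers summed to 0.121% to 0.195% in Hes1 KO against 0.00735% and 0.0258% in WT replicates 2 and 3. WT replicate 1 stood at 0.122%, inside the Hes1 KO range. Of these markers, 0 of 5 passed in the 5-library fit, where 15.5% of all genes passed. Their part in the Hdc difference was not tested. Carns1, which builds the histidine dipeptide carnosine, fell by 1.59 (SE 0.35, edgeR adjusted p = 0.0415) and did not pass without WT replicate 3. Dpp4, a surface dipeptidyl peptidase, fell by 1.38 (SE 0.28, edgeR adjusted p = 0.0362), with 131 CPM in WT replicate 3 inside the Hes1 KO range of 79.4 to 140 CPM.

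**Figure D5:**
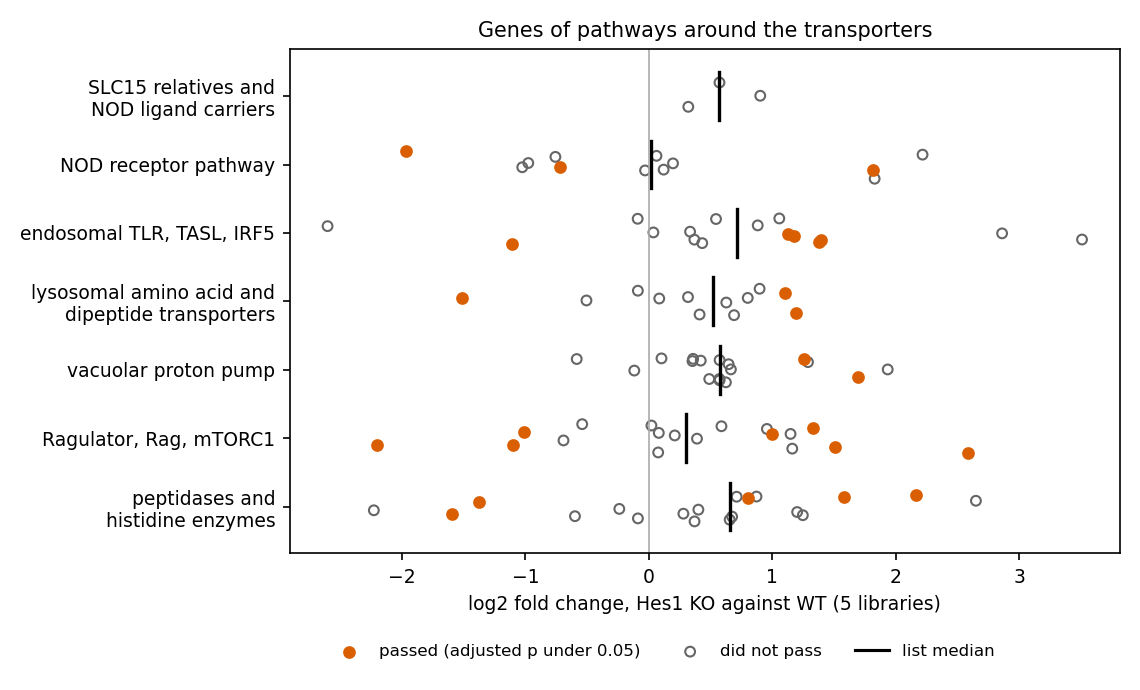
Log2 fold changes of the tested genes of 7 pathway lists, Hes1 KO against WT, in the 5-library fit. Each point is a gene (filled where the edgeR adjusted p was under 0.05), placed at a random height within its list, and black lines are list medians, from 0.01 for the NOD receptor pathway to 0.71 for the endosomal Toll-like receptor route.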

How the data were processed

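RNA sequencing of 6 mouse libraries, 3 Hes1 KO and 3 WT, was used, with groups and replicate numbers from the sample titles. Libraries were made from poly(A) RNA with a stranded TruSeq kit, per the labels' protocols. The authors deposited raw counts per gene symbol, whole numbers that the table's name credits to featureCounts. The submitters' processing notes list GRCm39, edgeR and limma. No aligner, annotation, strand setting or tool version is stated.

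The members and the gene lists were chosen with earlier results of these data known. Counts were tested with edgeR 4.0.16 (R 4.3.3) over all genes: filterByExpr, TMM scaling, quasi-likelihood test with the legacy option off, Benjamini-Hochberg adjustment, threshold 0.05. This was done with 6 libraries (14756 genes) and without WT replicate 1 (16190 genes). Each SE was taken as the size of the log2 fold change over the root of F. CPM are counts scaled to a library total of 1000000, without TMM factors unless stated. Intervals of single libraries are Wilson 95% intervals, which like floors of 3 counts cover counting error only. Coding lengths, gene positions and overlaps came from GENCODE vM21 (GRCm38), by symbol, and promoters from RefSeq (GRCm38.p6). The fit was also run on simulated counts as a check of the code, from which nothing is read about these libraries.

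Named were the members, Hes1, up to 4 passing genes of each list by smallest p (the 2 smallest where none passed), the 5 most alike genes of each member and the 2 most abundant markers of lists set beside a result. A result under this rule is not reported here. Same-numbered libraries were checked for shared deviations from their group means: the correlations over genes were 0.17, -0.01 and 0.26. Libraries with different numbers gave -0.245 to 0.029. The check includes the shallow WT replicate 1 and cannot exclude pairing, and the main fits used none. Alternatives were other scalings and filters, DESeq2 1.42.0, limma-voom (limma 3.58.1), a replicate block and the removal of single libraries.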

Additional observations from a re-analysis of the deposited data

How the results depend on the processing

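Slc15a2 and Slc15a3 kept their direction under every alternative run, and Slc15a4 under all but the removal of WT replicate 2, which gave 0.48 with 5 libraries and 0.017 with 6. For Slc15a2 the log2 fold change was -7.84 with library size alone, and, with all 6 libraries, -8.23 with no filter and -8.39 with at least 1 CPM in 2 libraries. Leaving out single libraries gave -10.26 to -7.27 for Slc15a2, 0.79 to 1.65 (5 libraries) and 0.88 to 1.57 (6) for Slc15a3, and -0.62 to 0.48 (5) and -0.51 to 0.017 (6) for Slc15a4. Without erythroid marker counts, an alternative added after the data were seen, the mean of Slc15a2 in WT replicates 2 and 3 was 50.2 CPM. Exonic in place of coding length moved no member's mean share by more than the spread between libraries.

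The counts of calls depended on the settings. With 5 libraries 2513 genes passed, against 0 with library size alone, 4997 by DESeq2, 1440 by limma-voom and 0 with the replicate block. The 16 list genes that rose became 0 with library size alone, 31 by DESeq2 and 0 with the replicate block. The 9 that fell became 0, 2 with no filter, 5 by limma-voom and 0 with the replicate block. With 6 libraries DESeq2 called 813 genes, 3 list genes higher and 1 lower. Leaving out single libraries gave 0 to 6210 genes (5 libraries) and 0 to 2513 (6), 0 to 39 and 0 to 16 list genes higher, and 0 to 14 and 0 to 9 lower. The highest counts with 5 libraries came from fits with a single WT library, whose spread rests on Hes1 KO alone. With all 6 libraries, added after the data were seen, Slc46a3 (-0.19), Irak4 (-0.55), Slc29a3 (-0.76) and Rheb (-0.094) changed sign. The cause was not tested. Same-numbered libraries deviated together in some pairs only, and pairing was not excluded. Calls lost with the block say nothing of effect size. Depth limits WT replicate 1, where 1 count is 15.1 CPM.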
